A study of Homo sapiens with 6 samples.

Results

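The 32 genes described here encode the endosomal sorting complexes required for transport (ESCRT) and the calcium-binding adaptor PDCD6. They were chosen by name, as rows of a deposited table of 25365 genes whose identifier equals a listed symbol, and all 32 were found. By complex they are 3 genes of ESCRT-0 (HGS, STAM, STAM2), 8 of ESCRT-I, 3 of ESCRT-II, 12 of ESCRT-III, 3 of the VPS4 complex, and the group of PDCD6IP (ALIX), PTPN23 and PDCD6. RNA was sequenced from MDA-MB-231, an established line of triple-negative breast cancer cells, 48 h after lipid transfection with 20 nM of siRNA. There were 6 libraries: 3 were made after a negative control siRNA, here called si-Control, and the other 3 after a single siRNA named si-NRDE2-2. Its target, NRDE2, encodes a partner of the nuclear RNA helicase MTREX. All groups share the transfection, and a single siRNA per group means that loss of NRDE2 and any other effect of that siRNA cannot be told apart. Nothing in the labels says that replicates were separate cultures, so every p-value here refers to the spread of these libraries alone, which may be technical.

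ESCRT complexes bend and cut membranes from their inner side. ESCRT-0 and ESCRT-I gather ubiquitin-tagged receptors on endosomes, ESCRT-II links them to ESCRT-III, whose CHMP proteins polymerise into filaments that close the membrane neck, and the VPS4 ATPase takes the filaments apart. The same machinery sorts growth factor receptors to lysosomes, releases exosomes, ends cell division, reseals the nuclear envelope and repairs the plasma membrane. ALIX and its relative PTPN23 carry cargo to ESCRT-III directly, and PDCD6, also called ALG-2, is a penta-EF-hand protein that binds ALIX and TSG101 when calcium rises.

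Values are FPKM (fragments normalised for transcript length and library depth) as deposited. Estimated depth ran from 41900000 fragments in si-NRDE2-2 replicate 3 to 57700000 in si-Control replicate 2, which put between 251 (CHMP4C, the lowest library) and 17000 (PDCD6IP, the highest library) fragments on a member. NRDE2 was between 3.80 and 4.45 FPKM in si-Control and between 0.229 and 0.234 FPKM in si-NRDE2-2 libraries, so the targeted gene matched every label. An annotated gene on the other strand, PSMC1, covers 3654 exonic bases of NRDE2, and the strand setting of the counting is not given. The mesenchymal marker VIM was at 1113 to 1260 FPKM, the hormone receptor genes ESR1 and PGR did not exceed 0.00441 FPKM, and ERBB2 was at 10.3 to 12.9 FPKM. The leukocyte marker PTPRC did not exceed 0.0618 FPKM. The endothelial marker PECAM1 was at 0.525 to 0.688 FPKM in si-Control and 0.958 to 1.18 FPKM in si-NRDE2-2 libraries.

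The main pattern was 1 large change within a machinery whose other members all moved less. PDCD6 mRNA rose 2.54-fold, while every other member stayed between 0.720 (PTPN23) and 1.38 (MVB12B) times its control level. Changes were tested on log2(FPKM + 0.1) with limma over 11788 genes, and a gene was called at an adjusted p under 0.05. This scale understates the change of low genes. Of the 32 members, all of which passed the filter on low values, 12 were called (37.5%), against 44.0% of all genes tested. Among them 8 were higher with si-NRDE2-2 (25%, against 20.9% of all genes) and 4 were lower (12.5%, against 23.0%). The 3 libraries of one group did not overlap the 3 of the other for 17 members (53.1%), against 53.5% of all genes tested. Of these 17, 9 lay higher with si-NRDE2-2 (background 25.2%) and 8 lower (background 28.3%). PDCD6 was the one member called and at least 2-fold higher, as were 0.619% of all genes tested. The median log2 change of the members was 0.02 and that of all genes -0.02, and the median absolute change was 0.12 and 0.14. These shares lie near or below the background, so as a set the members changed no more often than other genes. Without si-Control replicate 2, 5 members were called higher instead of 8, and over all genes tested the count went from 2469 to 1920.

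**Figure D1:**
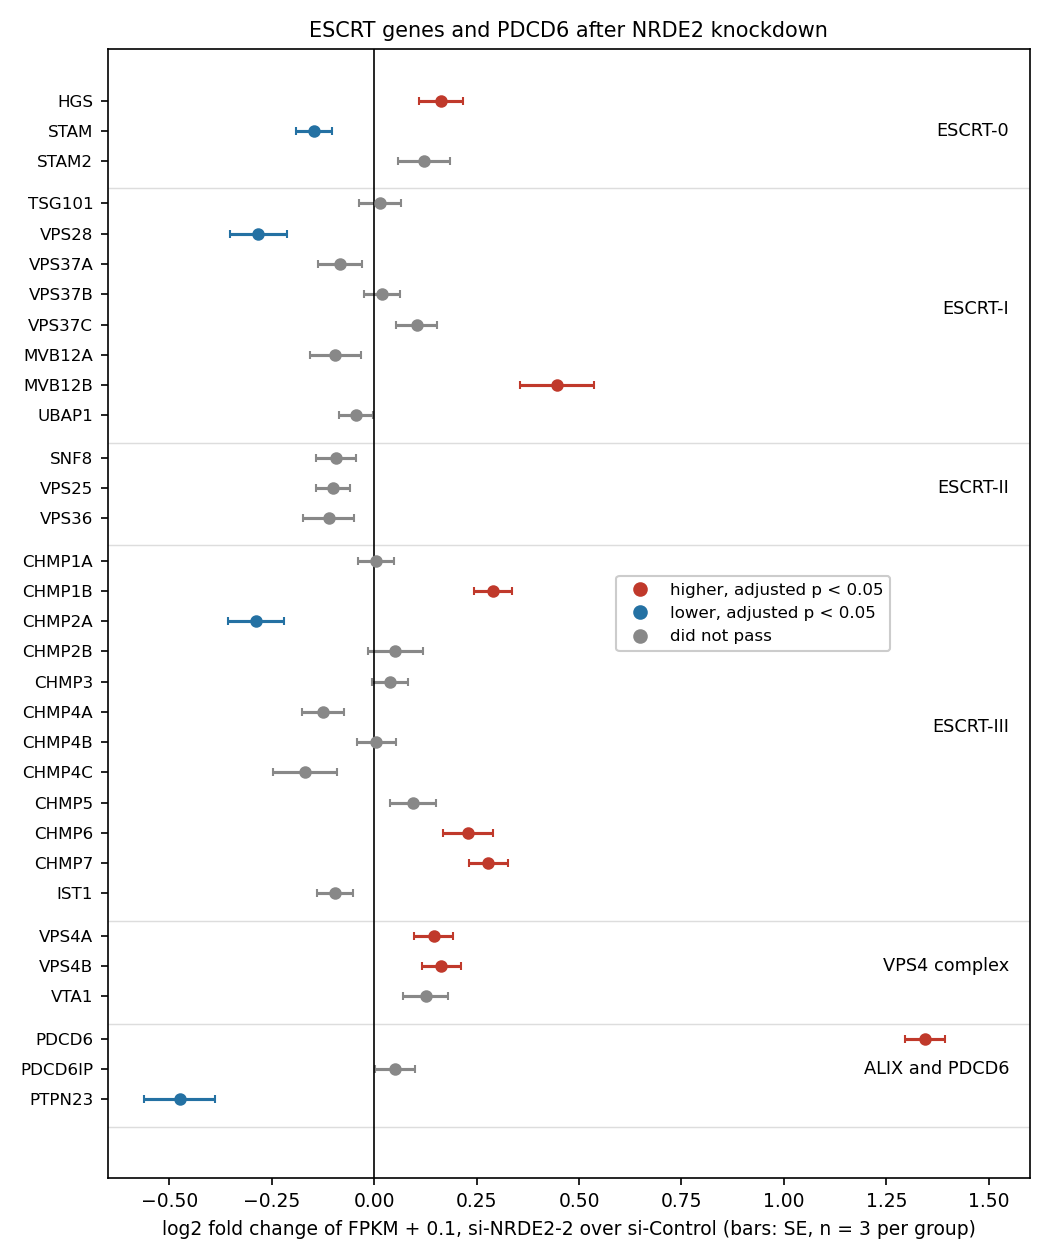
Log2 fold change (x axis, on the FPKM + 0.1 scale) of each of the 32 members, grouped by complex; points are limma estimates and bars are SE with 3 libraries per group, coloured by call. PDCD6 stands at 1.34, while the other 31 members lie between -0.47 (PTPN23) and 0.45 (MVB12B).

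PDCD6 was 24.4, 24.9 and 27.2 FPKM in the si-Control libraries, in order of replicate number as throughout, against 63.9, 64.8 and 66.1 FPKM after si-NRDE2-2. The groups were far apart, with less than 3 FPKM between the libraries within each. The mean went from 25.5 ± 1.53 to 64.9 ± 1.12 FPKM (SD, n = 3), a log2 change of 1.34 ± 0.05 (SE, limma adjusted p = 1.4e-08). This was rank 24 by log2 change among the 11788 genes tested. PDCD6 had already been known as one of the largest rises when the members were chosen, so its size is a description. In the GENCODE 29 annotation its exons share 45 bases with the neighbouring gene AHRR on the same strand.

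The end of the PDCD6 transcript is shown because it holds a hexamer that recurs in genes that were higher in si-NRDE2-2 libraries. The hexamer GACGTA, the heptamer GACAGTA and the heptamer GACTGTA had been picked from the fold changes of these same libraries, so their presence in a gene that rose is not independent evidence. The 3′ UTR sense strand of 1 GENCODE 29 transcript per gene was searched for each. Of the 32 members, 2 hold one of the 3 sequences (6.25%), against 18.1% of 10633 tested genes with an annotated 3′ UTR. The median 3′ UTR was 1276 bases long for the members and 1108 bases for all of these genes. PDCD6 holds GACGTA and VPS4B holds GACTGTA, printed below 5′ to 3′ with the matched letters in capitals and positions on GRCh38.
PDCD6, chr5:314943-314948, plus strand: ttggaatatgtGACGTAagcaataaagg
VPS4B, chr18:63389296-63389302, minus strand: tataacctattGACTGTAttctgtgtatt

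In PDCD6 the match covers bases 428 to 433 of a 3′ UTR of 459 bases. It ends 3 bases before AATAAA, the hexamer of the polyadenylation signal, which occurs once in that 3′ UTR. GACGTA lies in the 3′ UTR of 3.97% of the genes searched, whose median log2 change was 0.20, against -0.02 for genes without it. Because the sequence was picked on these fold changes, that difference is not independent evidence. The VPS4B match starts at base 1673 of a 3′ UTR of 1785 bases, and VPS4B rose far less than PDCD6 (0.16 ± 0.05 on the log2 scale). None of the other 30 members holds any of the 3 sequences in the transcript searched, and their median log2 change was 0.01. Among these 30, HGS, MVB12B, CHMP1B, CHMP6, CHMP7 and VPS4A were called higher, and MVB12B rose more than VPS4B. Whether these letters play a part in the rise of PDCD6 was not tested.

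ALIX, TSG101 and PEF1, which bind PDCD6 directly, were not called. PDCD6IP, which encodes ALIX, was 48.5, 47.7 and 45.4 FPKM in si-Control and 46.2, 49.5 and 51.0 FPKM in si-NRDE2-2 libraries, with overlapping groups (log2 change 0.05 ± 0.05, limma adjusted p = 0.429). TSG101, the ESCRT-I subunit that also binds PDCD6, was 68.0 ± 4.52 and 68.6 ± 1.08 FPKM (SD, n = 3). On this per-length scale PDCD6 went from below to above the level of ALIX mRNA. The FPKM ratio of PDCD6 to PDCD6IP was 0.542 ± 0.0518 in si-Control and 1.33 ± 0.0460 in si-NRDE2-2 libraries. PEF1, the penta-EF-hand protein that pairs with PDCD6, was 32.3 ± 2.06 and 31.5 ± 0.566 FPKM, and the ratio of PDCD6 to PEF1 went from 0.790 ± 0.0165 to 2.06 ± 0.0720. Both ratios separated the groups without overlap (exact two-sided permutation test, p = 0.10 for each, the smallest that 3 against 3 libraries allow). PDCD6 was already known as one of the largest rises when the members were chosen, and neither PDCD6IP nor PEF1 was called. The separation of these ratios was therefore fixed in advance and is only a description.

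PTPN23, which encodes the ALIX relative HD-PTP, a sorting factor for activated growth factor receptors, had the largest fall of the members. It was 16.3, 17.1 and 14.4 FPKM in the si-Control libraries, against 13.0, 11.1 and 10.3 FPKM after si-NRDE2-2. The groups did not overlap, but si-Control replicate 3 and si-NRDE2-2 replicate 1 lay close to each other. The mean fell from 15.9 ± 1.39 to 11.4 ± 1.41 FPKM, a log2 change of -0.47 ± 0.09 (SE, limma adjusted p = 0.0012). Within this group of 3 genes 1 rose, 1 fell and 1 did not pass (66.7% called, against 44.0% of all genes tested).

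**Figure D2:**
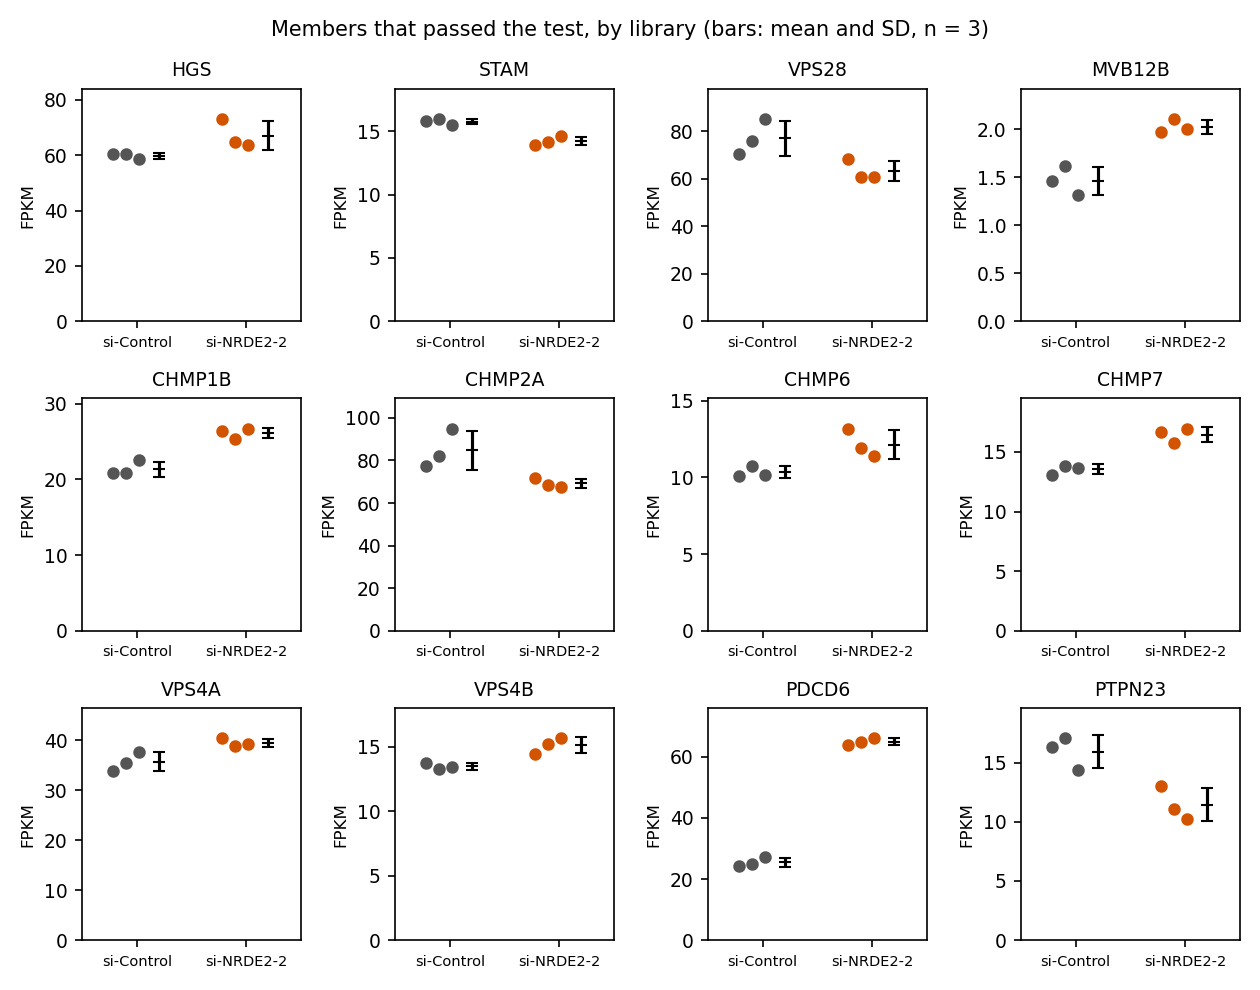
FPKM (y axes, each from 0) of the 12 called members in each library; points are libraries, bars mean and SD with n = 3. In PDCD6 the si-NRDE2-2 libraries sit between 63.9 and 66.1 FPKM, above all si-Control libraries, and in the other 11 panels the groups lie closer together.

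In ESCRT-0, whose subunits bind ubiquitin on endosomes, HGS rose, STAM fell and STAM2 did not pass. The share called was 66.7%, against 44.0% of all genes tested. HGS, the subunit that anchors the complex to endosomal lipid, was 60.5, 60.3 and 58.6 FPKM in si-Control and 73.0, 64.6 and 63.7 FPKM in si-NRDE2-2 libraries. Its groups did not overlap, and si-NRDE2-2 replicate 1 was the highest library (log2 change 0.16 ± 0.05, limma adjusted p = 0.0309). The call of HGS was lost without that library (adjusted p = 0.0785) and without si-Control replicate 2 or 3 (0.0750 and 0.0601). It was also lost with no filter on low values (0.0718) and with no variance trend (0.0614). STAM, the partner of HGS, was 15.8, 16.0 and 15.5 FPKM and then 13.9, 14.2 and 14.6 FPKM, a log2 change of -0.15 ± 0.04 (adjusted p = 0.0186). That call was lost on leaving out si-Control replicate 1 (adjusted p = 0.0565), si-Control replicate 2 (0.0790) or si-NRDE2-2 replicate 2 (0.0735) and with equal FPKM totals (0.0560). STAM2, the alternative partner, was 5.38 ± 0.160 and 5.87 ± 0.383 FPKM (adjusted p = 0.143, or 0.0312 without si-NRDE2-2 replicate 1). The FPKM ratio of STAM to STAM2 went from 2.93 ± 0.0570 to 2.43 ± 0.116, without overlap between the groups.

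In ESCRT-I, a rod of 4 different proteins built on TSG101 and VPS28, 1 gene rose, 1 fell and 6 did not pass. The share called was 25%, against 44.0% of all genes tested. VPS28 was 70.5, 75.8 and 85.1 FPKM in si-Control and 68.2, 60.7 and 61.0 FPKM in si-NRDE2-2 libraries. All si-NRDE2-2 libraries were lower, although si-Control replicate 1 exceeded si-NRDE2-2 replicate 1 by only a small margin (log2 change -0.28 ± 0.07, limma adjusted p = 0.0071). MVB12B, 1 of 2 interchangeable ubiquitin-binding subunits, was 1.46, 1.61 and 1.32 FPKM and then 1.97, 2.11 and 2.01 FPKM. Its groups were clearly separate (log2 change 0.45 ± 0.09, adjusted p = 0.0022), but it is the least abundant of all 32 members. The other such subunit, MVB12A, was far more abundant, at 43.6 ± 3.97 and 40.7 ± 1.77 FPKM, with overlapping groups (adjusted p = 0.242). The FPKM ratio of MVB12A to MVB12B went from 30.1 ± 5.57 to 20.1 ± 1.42. The VPS37 subunits, which set the form of the complex, were at 8.27 ± 0.179 and 7.80 ± 0.349 FPKM for VPS37A, 29.5 ± 1.03 and 29.9 ± 0.633 FPKM for VPS37B, and 10.6, 11.1 and 11.3 FPKM against 12.3, 11.6 and 11.6 FPKM by library for VPS37C. None of the 3 passed, although the groups of VPS37C did not overlap, nor did the endosome-specific subunit UBAP1 (32.7 ± 0.688 and 31.7 ± 0.780 FPKM). With GC and length trends removed, VPS37C was called higher (adjusted p = 0.0031, log2 change 0.15).

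The ESCRT-II genes SNF8, VPS25 and VPS36, which bridge ESCRT-I to ESCRT-III, all had log2 changes close to -0.10. None was called, against 44.0% of all genes tested. VPS25 was 83.2, 84.8 and 86.4 FPKM in si-Control and 80.5, 79.2 and 77.7 FPKM in si-NRDE2-2 libraries. Its groups did not overlap, yet the change was small (-0.10 ± 0.04, limma adjusted p = 0.0686). SNF8 was 65.8 ± 3.35 and 61.6 ± 1.76 FPKM (adjusted p = 0.139) and VPS36 6.80 ± 0.102 and 6.30 ± 0.458 FPKM (adjusted p = 0.173). The groups did not overlap for VPS36 and overlapped for SNF8. These calls depended on the scaling: VPS25 was called lower with equal FPKM totals and with quantile normalization (adjusted p = 0.0310 and 0.0146), SNF8 with quantile normalization (adjusted p = 0.0480) and VPS36 after removal of GC and length trends (adjusted p = 0.0244).

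In ESCRT-III 3 of 12 genes rose (CHMP1B, CHMP7 and CHMP6), 1 fell (CHMP2A) and 8 did not pass. The share called was 33.3%, against 44.0% of all genes tested. CHMP1B, a single-exon gene whose protein acts late in filament disassembly and binds spastin, was 20.8, 20.8 and 22.5 FPKM in si-Control and 26.4, 25.3 and 26.7 FPKM in si-NRDE2-2 libraries. The groups were separate (log2 change 0.29 ± 0.05, limma adjusted p = 0.00056). An annotated antisense gene covers 553 exonic bases of CHMP1B, and the strand setting of the counting is not given, so reads of the 2 genes may not be told apart. Opposite-strand genes likewise cover 612 exonic bases of HGS, 484 of VPS37B, 470 of MVB12A, 338 of CHMP6, 273 of IST1 and 204 of VPS37A. Shorter overlaps of this kind lie in PDCD6IP, SNF8, UBAP1, CHMP1A, STAM and VPS4A. CHMP7, which brings ESCRT-III to the nuclear envelope, was 13.1, 13.9 and 13.7 FPKM and then 16.7, 15.8 and 16.9 FPKM. It too was higher in all si-NRDE2-2 libraries (0.28 ± 0.05, adjusted p = 0.00087). CHMP6, the first ESCRT-III protein bound by ESCRT-II, was 10.1, 10.8 and 10.1 FPKM and then 13.2, 11.9 and 11.4 FPKM (0.23 ± 0.06, adjusted p = 0.0107).

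CHMP2A, a core filament subunit that recruits VPS4, moved the other way. It was 77.3, 82.2 and 94.9 FPKM in si-Control and 71.7, 68.4 and 67.5 FPKM in si-NRDE2-2 libraries (log2 change -0.29 ± 0.07, limma adjusted p = 0.0052). The groups did not overlap, and si-Control replicate 3 was the highest library. Its paralog CHMP2B, mutated in a familial dementia, was 13.2 ± 0.815 and 13.7 ± 1.14 FPKM (adjusted p = 0.561). CHMP4B, the most abundant filament former and the highest of all members, was 109 ± 4.46 and 109 ± 3.66 FPKM, and CHMP3 was 57.7, 59.95 and 58.9 FPKM and then 58.1, 62.0 and 61.4 FPKM. The 2 groups overlapped for both. CHMP4A (17.8 ± 1.12 and 16.3 ± 0.256 FPKM) shares 644 and 1330 exonic bases with 2 annotated genes on its own strand, and CHMP3 shares 760 with the readthrough gene RNF103-CHMP3, so the split of reads between them is uncertain. CHMP4C, an abscission checkpoint factor, was 3.51 ± 0.245 and 3.12 ± 0.206 FPKM, CHMP5 54.8 ± 4.15 and 58.5 ± 1.96 FPKM, CHMP1A 29.3 ± 0.454 and 29.4 ± 1.26 FPKM, and IST1 27.7 ± 1.08 and 25.9 ± 0.559 FPKM. None of these passed, with adjusted p-values from 0.0702 (CHMP4A) to 0.945 (CHMP1A). The groups of CHMP4A and of IST1 did not overlap, with lower values after si-NRDE2-2. CHMP5 was called higher without si-Control replicate 3 (adjusted p = 0.0114), and CHMP4A was called lower after removal of GC and length trends (adjusted p = 0.0230).

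The VPS4 complex was the one group whose 3 genes all had log2 changes above 0.10. Of these, 2 were called (66.7%, against 44.0% of all genes tested). The same share was called in ESCRT-0 and in the ALIX and PDCD6 group. VPS4A, an ATPase that disassembles ESCRT-III, was 33.9, 35.5 and 37.6 FPKM in si-Control and 40.3, 38.8 and 39.1 FPKM in si-NRDE2-2 libraries (0.15 ± 0.05, limma adjusted p = 0.0283). Its paralog VPS4B was 13.7, 13.3 and 13.4 FPKM and then 14.4, 15.2 and 15.6 FPKM (0.16 ± 0.05, adjusted p = 0.0166). Neither gene overlapped between groups. VTA1, the cofactor that stimulates the ATPase, was 15.2 ± 0.749 and 16.6 ± 0.790 FPKM with overlapping groups (adjusted p = 0.0809, or 0.0278 without si-NRDE2-2 replicate 1). These calls were weak. That of VPS4A was lost without any 1 library other than si-Control replicate 3, namely si-Control replicate 1 (adjusted p = 0.108) or 2 (0.0889) and si-NRDE2-2 replicate 1 (0.0693), 2 (0.0651) or 3 (0.0590). It was also lost with the replicate number as a block (0.0549). That of VPS4B was lost on leaving out si-Control replicate 2 (adjusted p = 0.0716), si-NRDE2-2 replicate 2 (0.0681) or si-NRDE2-2 replicate 3 (0.0724) and with equal FPKM totals (0.0560). An annotated same-strand gene shares 1191 exonic bases with VPS4A.

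Summed over its members, each complex apart from the group with PDCD6 lay between 0.934 (ESCRT-II) and 1.11 (VPS4 complex) times its control level. The summed libraries overlapped between groups for ESCRT-I and ESCRT-III. They did not overlap for ESCRT-0 and the VPS4 complex, both higher after si-NRDE2-2, for ESCRT-II, lower, and for the ALIX and PDCD6 group, higher. ESCRT-III held the largest sum, at 444 ± 21.6 FPKM in si-Control and 441 ± 3.18 FPKM in si-NRDE2-2 libraries (SD, n = 3). ESCRT-I was at 272 ± 17.4 and 256 ± 8.32 FPKM, ESCRT-II at 157 ± 4.56 and 147 ± 2.53 FPKM, ESCRT-0 at 81.0 ± 1.37 and 87.2 ± 4.47 FPKM, and the VPS4 complex at 64.3 ± 2.39 and 71.1 ± 0.722 FPKM. Within ESCRT-0 HGS went from 59.8 to 67.1 FPKM, STAM from 15.8 to 14.2 FPKM and STAM2 from 5.38 to 5.87 FPKM. The ALIX and PDCD6 group went from 88.6 ± 1.44 to 125 ± 2.10 FPKM. In that group PDCD6 went from 25.5 to 64.9 FPKM, PDCD6IP from 47.2 to 48.9 FPKM and PTPN23 from 15.9 to 11.4 FPKM. Over all 31 members other than PDCD6 the sum was 1082 ± 41.6 and 1062 ± 16.9 FPKM, a ratio of 0.982. Within si-Control, replicate 3 was above the mean of replicates 1 and 2 for 23 of 32 members (median log2 difference 0.06, against 0.01 over all genes tested), and its part in the calls of VPS28, CHMP2A and other members was not tested beyond the fits without it. Without it VPS28 and CHMP2A stayed called lower, with log2 changes of -0.21 and -0.20 instead of -0.28 and -0.29.

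**Figure D3:**
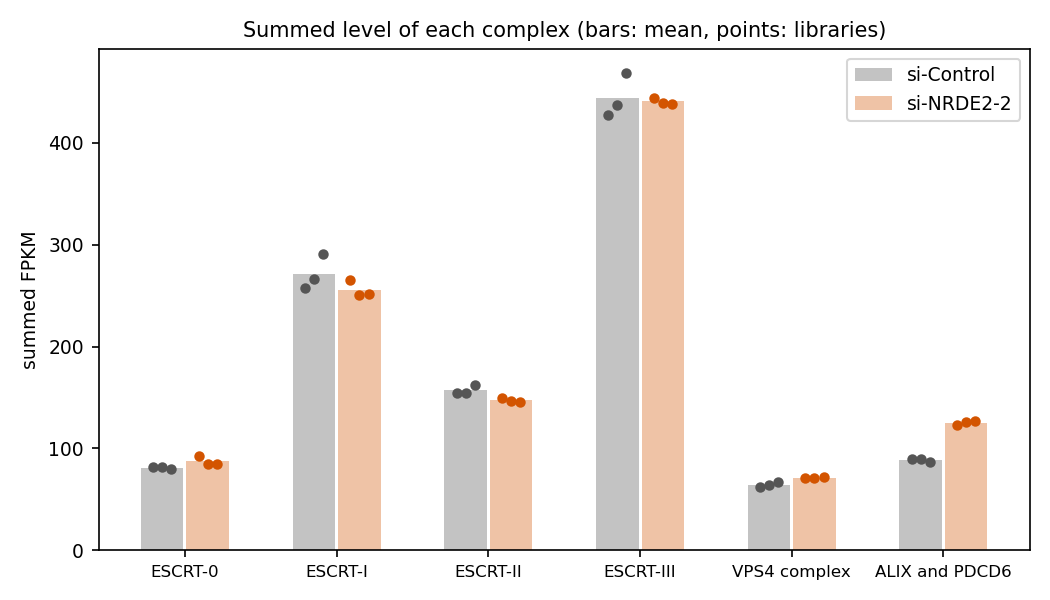
Summed FPKM (y axis, from 0) of the members of each complex; bars are group means and points the 3 libraries of each group. In the ALIX and PDCD6 group the sum went from 88.6 to 125 FPKM, whereas ESCRT-III stayed at 444 and 441 FPKM. Of the former sum, PDCD6 alone went from 25.5 to 64.9 FPKM.

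Several complexes use 1 of 2 or more related subunits, and the balance between them was compared as the log2 ratio of FPKM for 7 pairs of paralogs besides the PDCD6 pairs above. The ratio was lower in all si-NRDE2-2 libraries for MVB12A to MVB12B (difference -0.57), CHMP1A to CHMP1B (-0.29), STAM to STAM2 (-0.27) and CHMP4A to CHMP4B (-0.13). For these 4 pairs the exact two-sided permutation test gave p = 0.10, the smallest value that 3 against 3 libraries allow, and 0.15 after Benjamini-Hochberg adjustment over all 9 pairs. The 9 include the PDCD6 pairs, whose separation was fixed in advance, which lowers the adjusted value for the paralogs. The ratio of CHMP1A to CHMP1B, for example, was 1.38, 1.43 and 1.31 in si-Control and 1.17, 1.12 and 1.09 in si-NRDE2-2 libraries. The difference for MVB12A to MVB12B ran from -0.67 without si-Control replicate 2 to -0.42 without si-Control replicate 3. Among single genes the groups did not overlap for 53.5% of all genes tested, and no such background was taken for ratios. The groups overlapped for CHMP2A to CHMP2B (-0.34, exact permutation p = 0.20), VPS37A to VPS37B (-0.10, p = 0.30) and VPS4A to VPS4B (-0.02, p = 0.90). The 2 VPS4 paralogs thus differed in ratio by less than the spread between libraries, at 2.65 ± 0.173 and 2.61 ± 0.158.

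**Figure D4:**
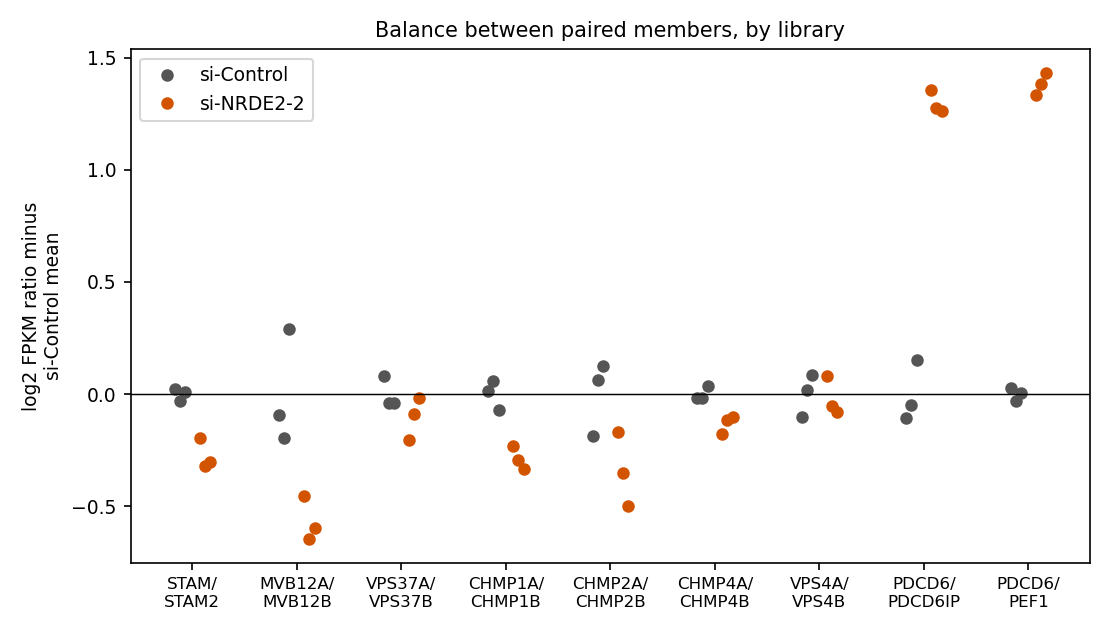
Log2 FPKM ratio of each pair (y axis), minus its si-Control mean, in each of the 6 libraries. The PDCD6 pairs lie at 1.30 and 1.38 in the mean of si-NRDE2-2 libraries, while the paralog pairs lie between -0.57 and -0.02.

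Across genes, the log2 change of the members had a Pearson correlation of -0.04 with the GC content of the transcript and -0.06 with log2 transcript length (n = 32 genes, which are not independent replicates and share all 6 libraries). Without PDCD6 these values were -0.09 and 0.29 over 31 genes, so the value for length rested on that gene. Over the 11088 tested genes with an annotated transcript they were -0.10 and 0.01.

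**Figure D5:**
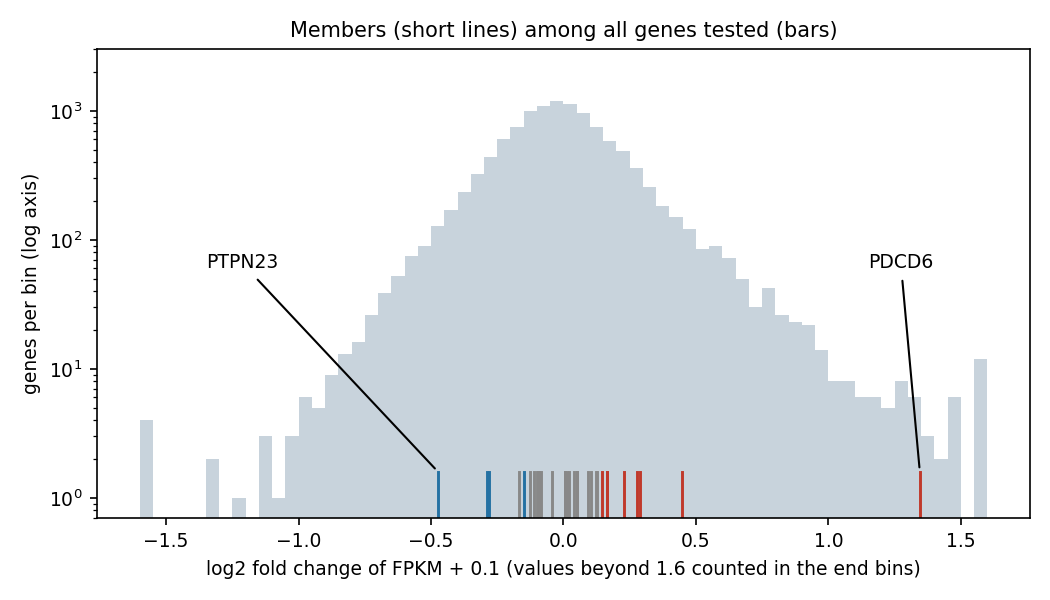
Number of genes (y axis, log scale) per bin of log2 fold change (x axis) for the 11788 genes tested, with each member as a short line coloured as called higher, called lower or not called. PDCD6 lies in the sparse right tail at rank 24. The other members lie between -0.47 (PTPN23, with 3.43% of genes tested below it) and 0.45 (MVB12B, with 94.4% below it).

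Genes that work beside the ESCRT machinery were read from 6 lists of cofactors, 92 genes in all, of which 91 could be tested. Of these 19 rose and 22 fell, a share of 45.1% against 44.0% of all genes, with a median log2 change of 0.01. Among 27 relatives and partners of PDCD6, 4 rose and 7 fell (median -0.05). WDR83, a WD-repeat scaffold protein, rose from 5.35 ± 0.191 to 9.60 ± 0.250 FPKM, although an annotated gene on the other strand covers 716 of its exonic bases. MAPK1IP1L, a proline-rich PDCD6 ligand, rose 1.21-fold and the COPII coat gene SEC24C, of which an opposite-strand gene covers 1927 exonic bases, 1.18-fold, while the death receptor gene FAS fell from 2.87 ± 0.0124 to 1.94 ± 0.212 FPKM.

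In the list for ALIX and Bro1-domain proteins 6 of 15 genes rose and 1 fell (median 0.07), against 20.9% higher and 23.0% lower over all genes tested. The other 8 did not pass, among them CD63, CD9 and CD81 at 1.02, 0.966 and 1.04 times control. SDCBP, which encodes syntenin, and the Bro1-domain genes RHPN1 and RHPN2 did not pass either (limma adjusted p = 0.0661, 0.582 and 0.496). The risers include the endocytic adaptor SH3KBP1 (40.0 ± 0.386 to 51.2 ± 0.217 FPKM), the syndecan genes SDC2 (9.59 ± 0.495 to 13.6 ± 0.637 FPKM) and SDC3 (1.18-fold), whose products bind syntenin and through it ALIX, and the Bro1-domain gene BROX (12.6 ± 0.637 to 16.5 ± 0.953 FPKM). The gene that fell was another syndecan gene, SDC4, the most abundant of the 4 listed (117 ± 8.66 to 98.2 ± 3.97 FPKM, limma adjusted p = 0.0050), named here after its values were seen. Among 13 alternative ESCRT-0 proteins and adaptors 1 rose, the arrestin-domain gene ARRDC3 (15.6 ± 1.19 to 22.5 ± 1.94 FPKM), and 4 fell. Among the 4 were TOM1L1, EPN1 and EPS15L1 at 0.876, 0.870 and 0.891 times control. Opposite-strand genes cover 722 exonic bases of TOM1L1 and 613 of EPN1. Of 10 endosomal deubiquitinases and ligases 1 rose and 2 fell. The deubiquitinase STAMBPL1 fell from 37.1 ± 0.248 to 25.6 ± 0.311 FPKM (log2 change -0.53 ± 0.04, limma adjusted p = 1.9e-06). The ligase WWP1 fell to 0.799 times control, and its relative NEDD4 rose 1.35-fold. NEDD4L, of which an opposite-strand gene covers 768 exonic bases, was at 1.06 times control and did not pass (limma adjusted p = 0.127).

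Of 14 regulators of ESCRT-III and VPS4 and proteins with MIT domains 4 rose and 6 fell (median -0.03), against 20.9% higher and 23.0% lower over all genes tested. CC2D1B, which binds CHMP4 proteins and times their polymerisation, fell from 10.5 ± 0.277 to 6.30 ± 0.210 FPKM (log2 change -0.73 ± 0.05, limma adjusted p = 1.6e-06). USP54, of which an opposite-strand gene covers 722 exonic bases, and the abscission checkpoint kinase gene ULK3 fell to 0.669 and 0.731 times control. The largest rise in this list was that of STX12, from 5.08 ± 0.0965 to 12.6 ± 0.313 FPKM (1.29 ± 0.05), but its product is an endosomal SNARE and no known ESCRT regulator. Of 12 genes of endosomal phosphoinositide signalling 3 rose and 2 fell, with the tethering factor EEA1 at 1.52 times control (1819 exonic bases covered by an opposite-strand gene) and the FYVE-domain gene ZFYVE9 at 0.822 times control, and with WDFY1 and RUFY1 at 1.17 and 0.906 times control. One of the 3 sequences searched above lies in the 3′ UTR of 21 of 90 tested cofactors (23.3%), against 18.1% of all genes searched. Of the 21, 11 were called higher and 2 lower, and of the 1926 such genes overall 767 were called higher (39.8%) and 234 lower. WDR83, SEC24C, MAPK1IP1L, SDC2, NEDD4, STX12, EEA1 and WDFY1 are among the 11. Because the sequences were picked on these fold changes, this count supports nothing by itself.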

How the data were processed

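Groups and replicate numbers came from the sample titles, and each column was tied to its sample by the description label. The authors deposited FPKM values per gene and library. The tools STAR 2.5.1b and DESeq2 1.10.1 and the build hg19 are listed, with no role, per the submitters' processing notes; the program that made the FPKM values, its annotation and its strand setting are not given in the sources used here. Totals ran from 448986 to 486271 FPKM. Another 4 columns of the table were not used.

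Depth was estimated from whole-multiple steps (tolerance 0.02) between low values of 949 genes, and its absolute scale rests on annotated lengths (quartiles 49200000 and 58500000 fragments for si-Control replicate 1). A gene was kept where 3 or more libraries reached 1 FPKM, and 160 small RNA rows were left out. The fit of log2(FPKM + 0.1) used limma 3.58.1 under R 4.3.3 (trended, robust prior variance, Benjamini-Hochberg over 11788 genes). A simulation on 11788 genes, with spread taken from this fit, changed 200 genes. It recovered 56% of genes set to 1.25-fold and 88% at 1.5-fold. In the data 44.0% of genes were called, so the adjusted threshold is not alike and these rates may not apply. Pairs used exact permutation tests in scipy 1.17.1. Transcript length, GC content, overlaps and 3′ UTRs came from GENCODE 29 (GRCh38), 1 transcript per gene except for overlaps.

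All members are named with both group levels, by library where called at an adjusted p under 0.05, and at most 4 genes per cofactor list by smallest adjusted p. Outside that rule PEF1 is named as a partner of PDCD6. SDC4, CD63, CD9, CD81, SDCBP, RHPN1 and RHPN2 are also outside it and were named after their values were seen. The members, the lists and the 3 sequences were chosen with earlier results of these data known.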

Additional observations from a re-analysis of the deposited data

How the results depend on the processing

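Over 18 alternatives (pseudocount, filter, small RNAs, scaling, prior variance, GC and length trends, replicate block, each library left out), 8 of the 12 called members kept their call and direction in every fit: PDCD6, PTPN23, VPS28, MVB12B (tested in 17), CHMP1B, CHMP2A, CHMP6 and CHMP7. PDCD6 ranged from 1.31 to 1.39 (log2) and PTPN23 from -0.57 to -0.40. HGS, STAM, VPS4A and VPS4B lost their call in at least 1 fit. Of the 20 members not called, 9 were called in at least 1 fit. Members called higher ran from 5 to 8 when single libraries were left out, and the cause was not tested. With GC and length trends removed, 6 members were called lower instead of 4 and 9 higher, and over 11088 genes 2963 lower and 3119 higher. With the replicate block added to that fit, 7 members were lower and 9 higher, and over the same genes 2948 lower and 3095 higher; the cause was not tested. Deviations of same-numbered libraries from their group means correlated at -0.12, 0.11 and -0.12, and those of unlike-numbered libraries at -0.11 to 0.17. Deviations from a group mean constrain one another, so these values cannot show whether same-numbered libraries were handled together. With the replicate number as a block 7 members were higher and 4 lower, and PDCD6 was at 1.34. MVB12B and CHMP4C could not be tested with a mean FPKM of at least 5. FPKM without counts limits the precision known for the least abundant members, CHMP4C and MVB12B.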

Other observations

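Rows related to the members by name but not among them were read as values. VPS37D, the fourth VPS37 paralog, was at 1.71 ± 0.107 FPKM in si-Control and 1.86 ± 0.106 FPKM in si-NRDE2-2 libraries (SD, n = 3; limma adjusted p = 0.281). The ALIX pseudogene PDCD6IPP2 was at 5.02 ± 0.0902 and 4.82 ± 0.175 FPKM (adjusted p = 0.449). The readthrough row RNF103-CHMP3 did not exceed 0.543 FPKM in any library, against 57.7 to 62.0 FPKM for CHMP3.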
